A study of Caenorhabditis elegans with 11 samples.

Results

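The math and bath genes of Caenorhabditis elegans encode proteins with a MATH domain, and their transcript levels were followed by RNA-seq through the adult life of worms kept on 2-deoxy-D-glucose (DOG), a glucose analogue that glycolysis cannot break down. Every row of the deposited count table whose gene name begins with math- or bath- was taken, whatever its values, which gave 86 genes, 49 math and 37 bath, of 45461 rows. The worms were wild-type N2 (var. Bristol), placed on NGM agar with 5 mM DOG once they had passed the L4 larval stage, fed heat-inactivated E. coli and washed daily so that offspring were lost. They were collected at the age of 1 day (3 libraries), 5 days (3 libraries), 10 days (3 libraries) and 20 days (2 libraries). Each library came from a pool of whole worms, with far more worms at 1 day than at 20 days. All 11 libraries were DOG-treated and the untreated worms of the study were not analysed here, so each comparison is between ages on DOG and says nothing of what DOG itself changed.

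The MATH domain is the fold by which many of these proteins hold a substrate. In the bath proteins it is joined to a BTB domain, which binds the cullin CUL-3, and such MATH-BTB proteins act as the substrate adaptors of CUL-3 ubiquitin ligases. MEL-26, the best studied worm adaptor, brings the katanin subunit MEI-1 to CUL-3 after meiosis so that the mitotic spindle can form. Most math genes encode a MATH domain without a BTB domain and have no assigned role, while MATH-33 is the worm homologue of the deubiquitylase USP7 and stabilises the longevity factor DAF-16. Both families have expanded in C. elegans, largely as clusters of neighbouring genes.

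The libraries held 23648292 to 58499127 reads counted on genes, and their scaling factors (trimmed mean of M values, TMM) lay between 0.946 and 1.076. The biological coefficient of variation, the spread between replicates beyond counting error, was 4.14%, and the labels do not say whether replicates came from separate cultures, so p-values measure only the spread between these libraries. The 14773 genes whose counts over the 11 libraries summed to 100 or more were tested in a single fit of the 4 ages with edgeR's quasi-likelihood F test. A gene is called higher or lower at the later age where its Benjamini-Hochberg adjusted p from that test, adjusted over all 14773 genes, is under 0.01, and "edgeR adjusted p" has this meaning throughout. Levels are CPM, the count of a gene scaled to the total of gene counts in its library, or, where genes are compared with each other, CPM per kilobase of exon (RPKM). In such whole-worm RNA, fewer cells of a type and less RNA per cell cannot be told apart. From 1 to 5 days 12 of 12 oocyte and embryo markers and 8 of 11 germline markers were called higher, whereas 6 of 6 body wall muscle, 5 of 6 intestine and 4 of 6 hypodermis markers were called lower, where 34.5% of all tested genes were called higher and 34% lower.

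Of the 86 genes, 60 reached the count minimum, 26 of 49 math and 34 of 37 bath. The other 26 were 23 math genes and bath-27, bath-33 and bath-37, and none of them had more than 20 counts in any library. Among these, math-1, math-19 and bath-27 had 0 counts in all 11 libraries, which allows up to 3 counts per library, or 0.0513 to 0.127 CPM for counting error only, and the other 23 had at least 1 count. The 5 tested genes bath-25, bath-46, math-15, math-20 and math-21 would have stayed under the minimum without the age at which they were highest, so a difference between ages was built into their passing. Annotation of WBcel235 lists 74 members as protein coding and 11 as pseudogenes, with math-36 unmatched, and of the pseudogenes only math-27, math-35 and math-47 were tested.

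Chromosome II carried 72 of the 86 members, 49 of them tested. In the gene order of WBcel235, 62 members stood in 7 arrays, defined here as at least 3 members with no more than 5 other genes between neighbours, and all 7 arrays were on chromosome II. The longest, array 4, ran from math-15 to bath-2 with 21 members, of which 8 were tested, and array 5, from math-47 to math-1, held 17 members, of which 13 were tested. Members also lay on chromosomes I (5 members), III (4), IV (1), V (3) and X (1). Exons of 16 members overlapped another gene, the most among tested members in math-3 (20.5% of its exon length) and bath-9 (18.6%). How reads that fit several near-identical copies were handled is not given in the sources used here, so low counts of array members are uncertain in this respect.

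Levels spanned 3 orders of magnitude and were highest outside the arrays. The median over tested members of the mean RPKM was 4.25 outside the arrays (0.239 to 237) and 2.20 within them (0.179 to 32.4), against 7.25 for all tested genes with a length, and 18 tested members lay above that value. The highest were bath-42 at 237, bath-40 at 156, bath-41 at 111, bath-43 at 85.6, math-33 at 85.4 and bath-44 at 65.3 RPKM, averaged over the 4 ages, none of them in an array. bath-40, bath-41, bath-42, bath-43 and bath-44 together supplied 77.3% to 80.7% of all bath counts in every library. The share of math-33 in all math counts was 71.6% to 73.4% at 1 day and 83.8% to 88.9% at the later ages. The other math genes were therefore low, the next highest being math-3 with a mean of 5.13 RPKM and math-27 with 3.70 RPKM.

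**Figure D1:**
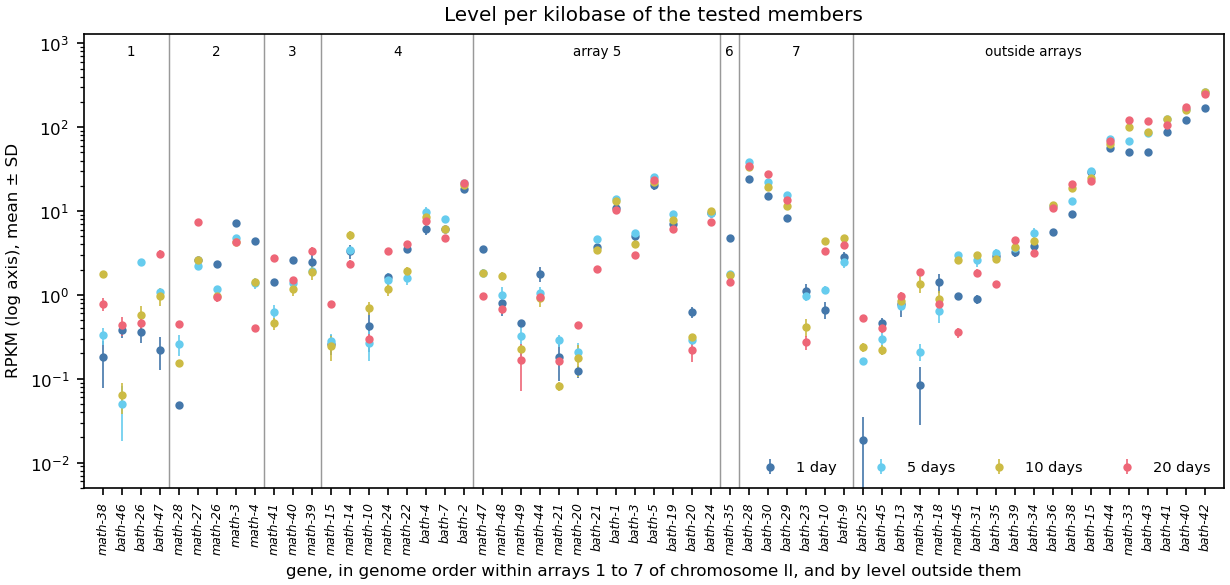
RPKM on a log axis (mean ± SD over 3 libraries, or 2 at 20 days) of the 59 tested members with an annotated length, in genome order within arrays 1 to 7 and by level outside them, with a colour for each age. The 6 points at the right, bath-44 to bath-42, lie above every array member, of which the highest averages 32.4 RPKM.

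Summed over all members, the transcript level was lowest at 1 day. At 1 day the 86 genes made up 1281 to 1336 CPM, at 5 days 1768 to 1833 CPM, at 10 days 1899 to 1921 CPM and at 20 days 2009 to 2056 CPM. With CPM divided by the TMM factor, the 1 and 5 day sums still stood apart from the rest, but those of 10 days (1899 to 1929) and 20 days (1884 and 1911) overlapped, so the order of the last 2 ages depends on the scaling. The 2 families are summed apart here. The bath sum stood at 991 to 1042 CPM at 1 day and at 1414 to 1471 CPM at all later ages, but divided by the TMM factor it was 1348 and 1357 at 20 days, below the 1415 to 1439 of 10 days. The math sum went from 287 to 294 CPM at 1 day to 332 to 362 CPM at 5 days, 485 to 489 CPM at 10 days and 572 to 596 CPM at 20 days. Its 4 ages did not overlap under either scaling. math-33 supplied 71.6% to 73.4% of this sum at 1 day and 83.8% to 88.9% later, so the rise does not describe the other math genes. The median log2 change of the 26 tested math genes from 1 to 20 days was -0.36.

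Between 1 and 5 days 26 of the 60 tested members were called higher and 13 lower, beside those 34.5% and 34% of all tested genes. The directions were unequal between the families: 22 of 34 bath genes were higher and 2 lower, and 4 of 26 math genes were higher and 11 lower. Outside the arrays 12 of 19 members were higher and 1 lower, and within them 13 of 40 were higher and 12 lower, with math-36 not placed. The median log2 change was 0.26 over the members, 0.37 for bath and -0.35 for math, beside -0.015 over all tested genes. Whether the gain of bath transcripts followed that of the oocyte and germline markers was not tested, nor was the part of array membership in the difference between families.

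The 2 later intervals follow. From 5 to 10 days 9 members were called higher and 11 lower, against 23.7% and 24.6% of all tested genes. Of these, 6 math genes were higher and 1 lower, whereas 3 bath genes were higher and 10 lower. The math gene called lower was math-21, which passed the count minimum only through its 5 day libraries. From 10 to 20 days 14 members were higher and 23 lower, against 28.3% and 28.2% of all tested genes. By family 9 math genes were higher and 8 lower, and 5 bath genes were higher and 15 lower. The 14 include bath-25, bath-46, math-15 and math-20, which passed the count minimum only through their 20 day libraries. Scaled by library size alone, 16 members were called higher and 19 lower from 10 to 20 days. With that scaling 5218 of all 14773 tested genes were called higher and 2977 lower in this interval. It moves the median of all genes by 0.10 on the log2 scale in this interval and by 0.15 between 1 and 20 days. The median log2 change of the members was -0.088 from 5 to 10 days, and -0.058 without replicate 2 of 10 days. It was -0.17 from 10 to 20 days, and -0.070 without replicate 2 of 20 days.

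Over the whole span, from 1 to 20 days, 24 members were called higher and 22 lower, or 40% and 36.7%, where 38.5% and 38% of all tested genes were called higher and lower. By family these were 9 math genes higher and 11 lower, and 15 bath genes higher and 11 lower. The higher ones include bath-25, math-15 and math-20, which passed the count minimum only through their 20 day libraries. The median log2 change was 0.11, which became 0.025 without replicate 2 of 1 day and 0.018 without replicate 1 of 20 days, beside -0.0074 over all tested genes. When the 4 ages were tested together, 57 of 60 members were called, beside 91.4% of all tested genes. Not called were bath-2, bath-13 and bath-39. The 57 include bath-25, bath-46, math-15, math-20 and math-21, for which a difference between ages was built into their passing the count minimum. The highest age mean was at least 2-fold the lowest for 23 of 26 math genes and for 14 of 34 bath genes. These include bath-25, bath-46, math-15, math-20 and math-21, which passed the count minimum only through their highest age. The share of all tested genes with such a 2-fold difference is not given here. The part of the lower counts of the math genes in these 2-fold differences was not tested.

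**Figure D2:**
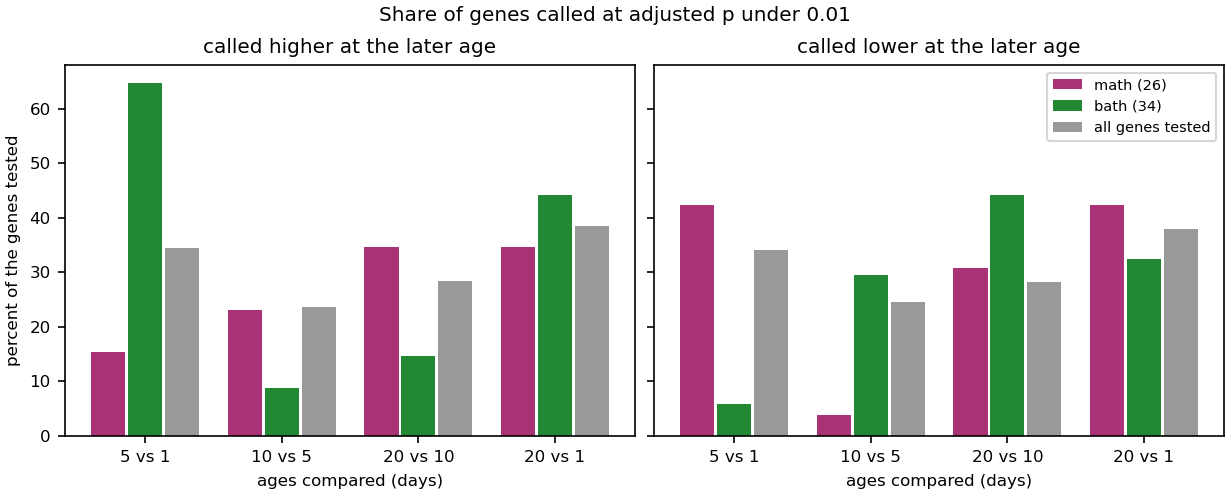
Bars give the percent of tested math genes (26), bath genes (34) and all tested genes called higher (left) or lower (right) at the later of the 2 ages named under each group of bars. From 1 to 5 days 64.7% of bath genes and 15.4% of math genes were called higher, beside 34.5% of all tested genes.

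Steady trends over the 4 ages were counted by rank correlation. For each gene, Spearman's rho between CPM and age was averaged over the 54 ways to take 1 library per age, and a mean of at least 0.75 or at most -0.75 was counted as rising or falling. Rising members numbered 13, 5 math and 8 bath, or 21.7% beside 27.1% of all tested genes. They include bath-25 and math-20, which passed the count minimum only through their 20 day libraries. Falling members numbered 10, 6 math and 4 bath, or 16.7% beside 18.4%. Mean rho was 1 for math-33, math-34, bath-25 and bath-38, whose CPM was in the order of age in every choice of libraries. With CPM divided by the TMM factor this held for math-33, math-34 and bath-25 but not for bath-38, whose 10 day libraries (30.3 to 31.8) and 20 day libraries (31.2 and 32.8) then overlapped, and whose change from 10 to 20 days was not called (0.05 ± 0.05, edgeR adjusted p = 0.36). By CPM not divided by the TMM factor, the age of the highest mean was 1 day for 12 members, 5 days for 16, 10 days for 12 and 20 days for 20. By the same values 25 members were lowest at 1 day and 20 at 20 days. The shares of all tested genes are not given here. Those highest at 20 days include bath-25, bath-46, math-15 and math-20, which passed the count minimum only through that age.

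**Figure D3:**
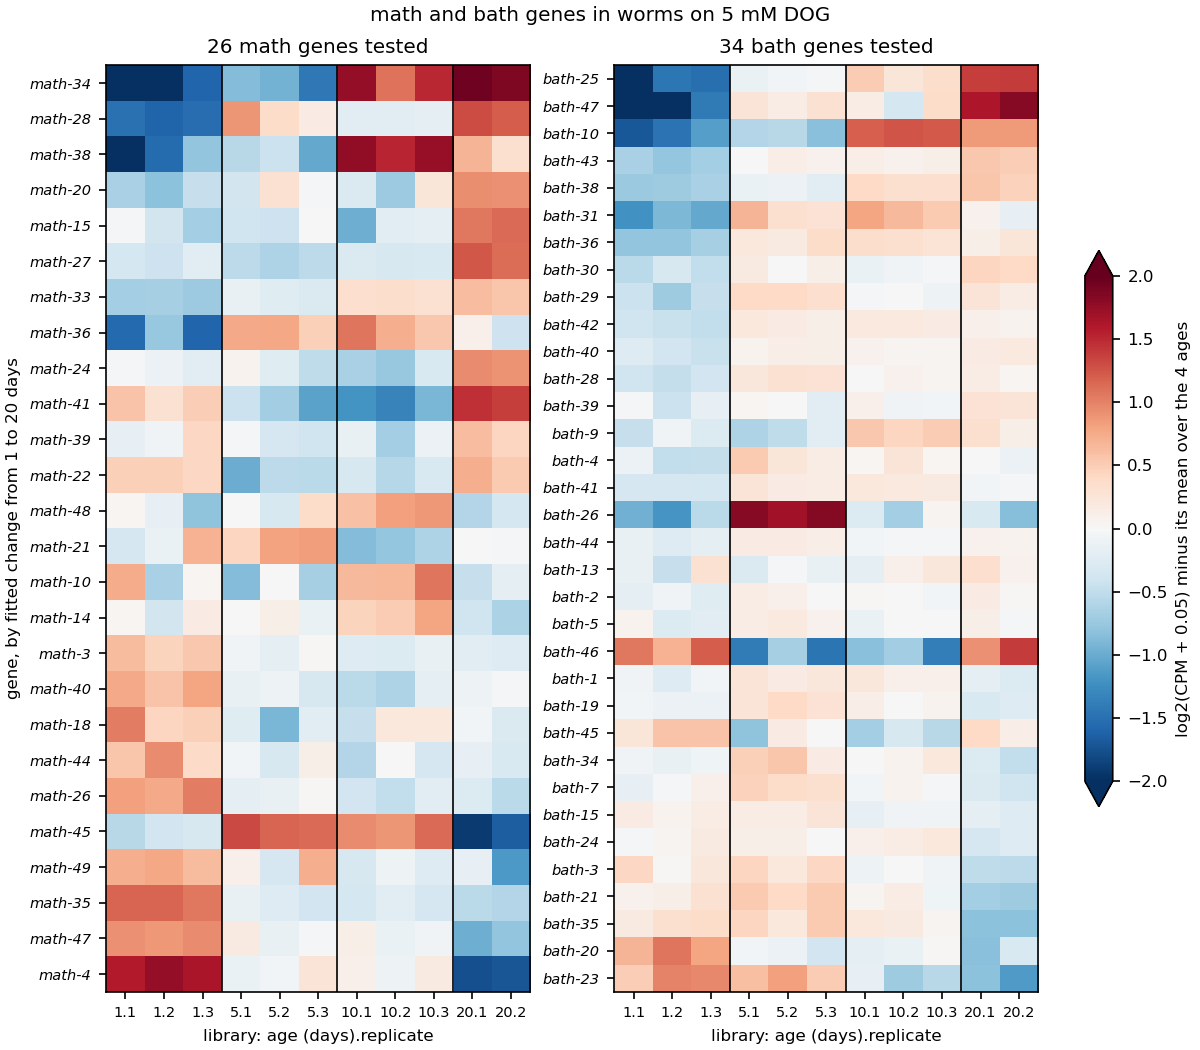
Each row is a tested member and each column a library (age in days, then replicate), with colour giving log2(CPM + 0.05) minus its mean over the 4 ages, and rows sorted within each family by the fitted change from 1 to 20 days. Replicates of an age share colours within most rows, and math rows are more strongly coloured than most bath rows.

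The abundant bath genes outside the arrays gained transcripts between 1 and 5 days. bath-42, known for binding RIC-3, a chaperone of acetylcholine receptors, measured 301, 290 and 283 CPM at 1 day and 462, 447 and 430 CPM at 5 days. At 1 day its RPKM was 171 ± 5.33 (SD over 3 libraries) and at 20 days 249 ± 3.87 (SD over 2), with 262 ± 9.39 and 266 ± 3.42 (SD over 3 each) at 5 and 10 days between them. The rise lay entirely in the first interval, with a log2 change of 0.58 ± 0.04 (SE; edgeR adjusted p = 4.4e-11), and the libraries of 1 day were below all others. The fall of 0.20 ± 0.04 from 10 to 20 days was called (edgeR adjusted p = 0.00027) but became 0.09, not called, when libraries were scaled by size alone.

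bath-43, named spop-1 in WBcel235 after the human cullin adaptor SPOP, rose in 2 steps. Its CPM was 90.2, 82.9 and 88.8 at 1 day, 141, 155 and 151 at 5 days, 155, 151 and 153 at 10 days and 206 and 199 at 20 days. The first step was 0.73 ± 0.04 on the log2 scale (edgeR adjusted p = 3.6e-12) and the second, from 10 to 20 days, 0.30 ± 0.04 (edgeR adjusted p = 3.1e-06), while the 5 and 10 day libraries overlapped. Over the span its level rose 2.09-fold, to 117 ± 2.88 RPKM (n = 2).

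bath-40, bath-41 and bath-44, the other abundant BTB-bearing members, also rose from 1 to 5 days, by 0.43 ± 0.04, 0.49 ± 0.03 and 0.31 ± 0.03 on the log2 scale. bath-40 measured 193, 176 and 169 CPM at 1 day and 238 to 263 CPM in the 8 later libraries, with no overlap. bath-41 measured 128 to 130 CPM at 1 day, 182 to 195 CPM at 5 and 10 days and 158 and 161 CPM at 20 days. Its fall from 10 to 20 days was called (-0.34 ± 0.04, edgeR adjusted p = 1.9e-07). What remained of its gain between 1 and 20 days, 0.15 ± 0.04 (edgeR adjusted p = 0.00080), lost its call without replicate 2 of 20 days (0.14, edgeR adjusted p = 0.018). bath-38, at a lower level, rose from 14.4 to 15.3 CPM at 1 day to 33.2 and 35.3 CPM at 20 days, a log2 change of 1.05 ± 0.06.

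math-33, the USP7-type deubiquitylase, climbed at every age. It measured 213, 215 and 205 CPM at 1 day, 308, 287 and 278 CPM at 5 days, 432, 433 and 423 CPM at 10 days and 522 and 503 CPM at 20 days, with no overlap between any 2 ages. The change from 1 to 20 days was 1.13 ± 0.04 on the log2 scale, or 2.19-fold (edgeR adjusted p = 1.2e-14). Its steps were 0.42 ± 0.04 from 1 to 5 days and 0.55 ± 0.04 from 5 to 10 days. The last step was small, 0.15 ± 0.04 (edgeR adjusted p = 0.0047), and was not called without any 1 of the 5 libraries of 10 and 20 days (0.13 without replicate 1 of 20 days to 0.17 without replicate 2 of 20 days) or with DESeq2's size factors (0.12).

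The largest relative rises were in low-level members. bath-25, on chromosome I and outside the arrays, had 0, 1 and 1 counts at 1 day, 4, 5 and 5 at 5 days, 10, 9 and 12 at 10 days and 27 and 30 at 20 days. The ratio of summed counts over summed library totals, 20 days against 1 day, was 25.2, with an exact 95% interval of 6.66 to 213.1 for counting error only. Its libraries stood in the order of age without overlap, but it is a gene that passed the minimum through its highest age.

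math-34, also outside the arrays, stayed low until 5 days and then rose steeply. It had 1, 5 and 9 counts at 1 day, 11, 12 and 8 at 5 days, 106, 75 and 122 at 10 days and 165 and 171 at 20 days. The step from 5 to 10 days was 2.68 ± 0.26 on the log2 scale, 6.42-fold (edgeR adjusted p = 6.3e-08), the largest rise of any tested member in that interval. From 1 to 20 days the change was 4.13 ± 0.30 (edgeR adjusted p = 2.4e-10).

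bath-47, in array 1, rose in the first and the last interval. It measured 0.381, 0.346 and 0.720 CPM at 1 day, 2.38, 2.21 and 2.49 CPM at 5 days, 2.22, 1.55 and 2.59 CPM at 10 days and 6.70 ± 0.703 CPM (SD, n = 2) at 20 days. These steps were 2.17 ± 0.26 and 1.54 ± 0.16 on the log2 scale (edgeR adjusted p = 4.4e-07 and 7.6e-08), and the 5 and 10 day libraries overlapped. math-28, the first gene of array 2, had 3, 4 and 5 counts at 1 day, 24, 19 and 16 at 5 days, 15, 17 and 21 at 10 days and 63 and 65 at 20 days. Its 10 day libraries, at 0.382 to 0.392 CPM, stood below those of 5 days, at 0.511 to 0.867 CPM, a change of -0.75 ± 0.25 that was not called (edgeR adjusted p = 0.017). Its change from 1 to 20 days was 3.06 ± 0.31, or 8.31-fold (edgeR adjusted p = 3.0e-08).

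In bath-10 and math-38 most of the rise came between 5 and 10 days, and it was partly lost by 20 days. bath-10, near the end of array 7, measured 0.592 to 0.919 CPM at 1 day, 1.12 to 1.37 CPM at 5 days, 4.67 to 4.90 CPM at 10 days and 3.70 and 3.71 CPM at 20 days. Its rise from 1 to 5 days was 0.70 ± 0.19 on the log2 scale (edgeR adjusted p = 0.0031), a call lost without replicate 1 or 2 of either age. Its rise from 5 to 10 days was 1.90 ± 0.13 (edgeR adjusted p = 5.4e-10), followed by a fall of 0.47 ± 0.11 (edgeR adjusted p = 0.00086). math-38, at the start of array 1, measured 0.127 to 0.422 CPM at 1 day, 0.351 to 0.560 CPM at 5 days, 2.29 to 2.73 CPM at 10 days and 1.26 and 0.974 CPM at 20 days. Its changes from 5 to 10 and from 10 to 20 days were 2.43 ± 0.23 and -1.30 ± 0.19 (edgeR adjusted p = 4.0e-08 and 8.8e-06).

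math-15 and math-20 were not called in either interval up to 10 days and had more counts at 20 days. math-15, the first gene of array 4, had 6 to 16 counts in each of the 9 libraries up to 10 days and 41 and 48 counts at 20 days, a fitted log2 change from 1 to 20 days of 1.49 ± 0.30. math-20 had 4 to 19 counts in those 9 libraries and 32 and 35 counts at 20 days, a change of 1.63 ± 0.36. Both passed the count minimum only through the 20 day libraries, so these changes are a description.

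The deepest fall was that of math-4 in array 2, in 2 steps with a plateau between. It had 283, 471 and 497 counts at 1 day (12.6 ± 0.837 CPM, SD, n = 3) and measured 3.61, 3.79 and 4.72 CPM at 5 days, 4.24, 3.71 and 4.48 CPM at 10 days and 1.13 and 1.18 CPM at 20 days. It fell by 1.68 ± 0.11 on the log2 scale from 1 to 5 days (edgeR adjusted p = 4.4e-11) and by 1.94 ± 0.15 from 10 to 20 days (edgeR adjusted p = 1.8e-09). Over the span this was -3.60 ± 0.13, a level 12.1-fold lower. Its neighbours did not share this course: math-3 and math-26 fell by 0.93 ± 0.07 and 1.45 ± 0.13 over the span, mostly in the first interval, and math-27 was higher at 20 days. math-3 overlaps math-26 by 20 bases on the same strand and another gene by 469 bases, so part of its counts is uncertain.

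Of the 3 tested pseudogenes, math-35 and math-47 fell over the span and math-27 rose. math-35 measured 6.11 to 6.62 CPM at 1 day, 2.23 to 2.64 CPM at 5 and 10 days and 1.93 and 2.00 CPM at 20 days, a fall of 1.45 ± 0.11 on the log2 scale in the first interval and a change over the span of -1.86 ± 0.11 (edgeR adjusted p = 1.1e-11). math-47, the first gene of array 5, measured 3.28 ± 0.0784 CPM (SD, n = 3) at 1 day, 1.55 to 1.95 CPM at 5 and 10 days and 0.848 and 0.974 CPM at 20 days, a change of -1.99 ± 0.15 (edgeR adjusted p = 4.4e-10). math-27 changed by -0.28 ± 0.09 from 1 to 5 days (edgeR adjusted p = 0.0074), a call lost without replicate 3 of 1 day or any 1 library of 5 days. It stayed between 5.25 and 6.90 CPM up to 10 days and stood at 19.2 and 17.5 CPM at 20 days. It rose by 1.39 ± 0.07 from 10 to 20 days (edgeR adjusted p = 5.5e-12), so at 20 days a gene listed as a pseudogene was, per kilobase, the highest math transcript with a length after math-33, at 7.38 ± 0.475 RPKM (n = 2).

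**Figure D4:**
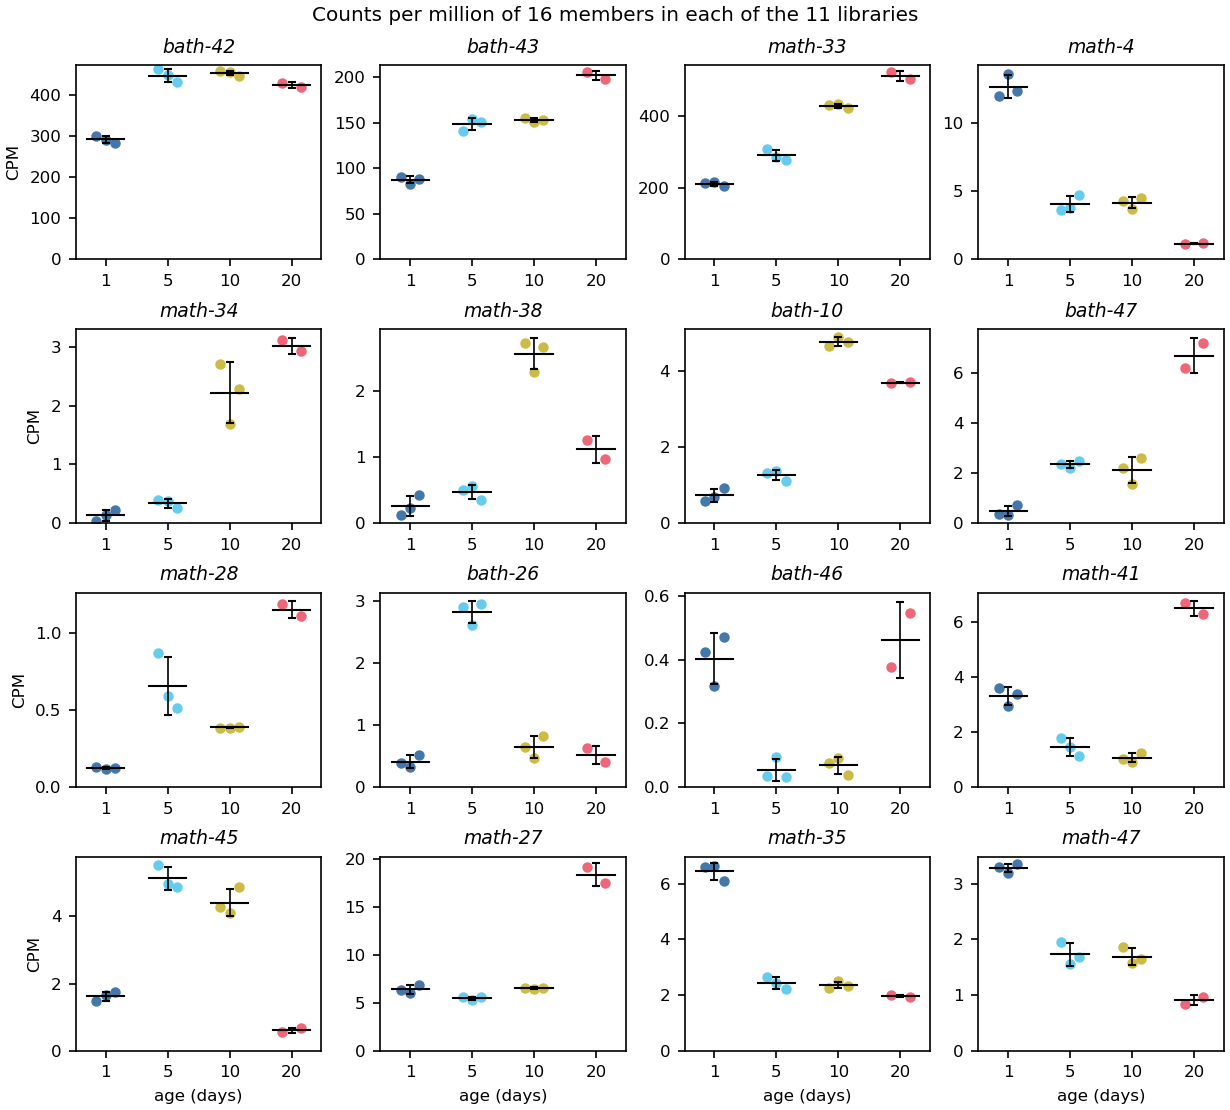
CPM (linear axes from 0) of 16 members at each age, a point for each library, with a bar for the mean and an error bar for the SD over 3 libraries, or 2 at 20 days. math-33 rises at every age from 205 to 215 CPM to 503 and 522 CPM, math-4 falls in 2 steps, and bath-26 stands high at 5 days alone.

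Falls of smaller genes were seen in arrays 5 and 7. bath-20 had 25, 49 and 46 counts at 1 day, 1.06 to 1.41 CPM, and 18 and 30 counts at 20 days, 0.339 and 0.513 CPM, a change of -1.64 ± 0.24 on the log2 scale (edgeR adjusted p = 4.5e-06). bath-23 measured 0.634 to 0.922 CPM at 1 day, 0.638 to 0.808 CPM at 5 days, 0.247 to 0.383 CPM at 10 days and 0.171 and 0.226 CPM at 20 days. Its change over the span was -2.21 ± 0.31 (edgeR adjusted p = 2.1e-06), with a called step of -1.25 ± 0.28 from 5 to 10 days. math-49 had 15, 23 and 24 counts at 1 day and 17 and 8 at 20 days, and its change of -1.62 ± 0.36 was not called without replicate 2 of 20 days (-1.12, edgeR adjusted p = 0.013).

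bath-26 was high at 5 days alone. bath-26, in array 1, measured 0.381, 0.317 and 0.521 CPM at 1 day, 2.89, 2.61 and 2.94 CPM at 5 days, 0.639, 0.472 and 0.821 CPM at 10 days and 0.622 and 0.410 CPM at 20 days. It rose by 2.71 ± 0.23 on the log2 scale to 5 days and fell by 2.11 ± 0.20 to 10 days (edgeR adjusted p = 4.2e-09 and 3.6e-08), and its 1 and 20 day libraries overlapped. bath-46, its neighbour, was low at both 5 and 10 days, with 10, 11 and 19 counts at 1 day, 1, 3 and 1 at 5 days, 3, 4 and 2 at 10 days and 20 and 32 at 20 days. Its change from 1 to 5 days was -2.86 ± 0.51 (edgeR adjusted p = 4.9e-05) and that from 5 to 10 days 0.24 ± 0.71 (edgeR adjusted p = 0.81). From 10 to 20 days the fitted change was 2.67 ± 0.42, given as a description because bath-46 passed the count minimum only through its 20 day libraries. The exons of bath-26 and bath-46 overlap by 28 bases on opposite strands, and the library kit does not mark strand, so reads in those bases cannot be assigned to either gene.

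math-45 and math-41 turned at 20 days in opposite directions. math-45, outside the arrays, measured 1.48 to 1.74 CPM at 1 day, 4.88 to 5.53 CPM at 5 days, 4.09 to 4.87 CPM at 10 days and 0.547 and 0.667 CPM at 20 days. Its fall from 10 to 20 days, 2.96 ± 0.15 on the log2 scale, was the largest of any tested member in an interval (edgeR adjusted p = 5.8e-12), after a rise of 1.59 ± 0.13 from 1 to 5 days. math-41, in array 3, measured 2.97 to 3.59 CPM at 1 day, 1.12 to 1.77 CPM at 5 days, 0.922 to 1.25 CPM at 10 days and 6.69 and 6.31 CPM at 20 days. It fell by 1.24 ± 0.16 from 1 to 5 days and rose by 2.49 ± 0.14 from 10 to 20 days (edgeR adjusted p = 8.9e-07 and 1.7e-11).

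A few array members had their highest or lowest mean CPM at 10 days. math-48 in array 5 measured 0.497 to 1.18 CPM at 1 and 5 days, 1.38 to 1.70 CPM at 10 days and 0.584 and 0.701 CPM at 20 days. It fell by 1.39 ± 0.23 on the log2 scale after 10 days (edgeR adjusted p = 3.1e-05). Its rise from 5 to 10 days was 0.75 ± 0.21 (edgeR adjusted p = 0.0055). That call was lost with DESeq2, and without replicate 1 or 2 of 5 days or replicate 2 or 3 of 10 days (edgeR adjusted p = 0.017 to 0.043). math-10 in array 4 had 28, 32 and 52 counts at 10 days and 6 to 22 counts in every other library. Its rise of 1.39 ± 0.34 and fall of 1.35 ± 0.32 on either side of 10 days were called (edgeR adjusted p = 0.0016 and 0.0012). Without replicate 3 of 5 days the rise was 1.27 (edgeR adjusted p = 0.011), and without replicate 1 of 20 days the fall was 1.20 (edgeR adjusted p = 0.014), neither of which was called. math-21 in array 5 had its lowest mean at 10 days. It had 9, 14 and 14 counts at 5 days, 4, 5 and 7 at 10 days and 12 and 13 at 20 days. The fitted change of -1.78 ± 0.39 from 5 to 10 days is a description, since math-21 passed the count minimum only through its 5 day libraries. Its change from 10 to 20 days was not called (0.82 ± 0.43, edgeR adjusted p = 0.097).

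Further members were picked for description after their values were seen. bath-31 and bath-36, outside the arrays, and math-36 were lowest at 1 day. bath-36 measured 8.75, 8.76 and 9.58 CPM at 1 day and 16.5 to 19.7 CPM in the 8 later libraries, and it rose by 0.96 ± 0.07 on the log2 scale in the first interval (edgeR adjusted p = 6.5e-10). bath-31 measured 0.846 to 1.07 CPM at 1 day, 2.49 to 3.29 CPM at 5 days, 2.93 to 3.55 CPM at 10 days and 1.81 and 2.15 CPM at 20 days, with a rise of 1.46 ± 0.18 to 5 days (edgeR adjusted p = 4.1e-07). math-22 and math-24 of array 4 had their highest mean CPM at 20 days, but the change of math-22 from 1 to 20 days was not called (0.03 ± 0.12, edgeR adjusted p = 0.84). math-22 measured 4.47 to 4.69 CPM at 1 day, 1.66 to 2.69 CPM at 5 and 10 days and 5.58 and 4.84 CPM at 20 days, so it fell by 1.17 ± 0.13 and regained 0.93 ± 0.12. In array 5, bath-3 and bath-21 fell over the span by 0.89 ± 0.11 and 1.04 ± 0.13, and bath-35 on chromosome I fell by 1.10 ± 0.13 in the last interval alone, from 3.10 to 3.47 CPM to 1.66 CPM in both libraries.

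The 3 members not called over the 4 ages together are given with their ranges over the 11 libraries. bath-2, the last gene of array 4, measured 19.3 to 25.5 CPM (edgeR adjusted p = 0.046 over the 4 ages). bath-39 on chromosome V measured 3.80 to 6.24 CPM (edgeR adjusted p = 0.039), and bath-13 measured 0.605 to 1.09 CPM (edgeR adjusted p = 0.71). Between 2 ages, bath-2 was called higher from 1 to 5 days (0.20 ± 0.06 on the log2 scale, edgeR adjusted p = 0.0082). bath-39 was called higher from 1 to 20 days (0.34 ± 0.11, edgeR adjusted p = 0.0068). For bath-13 the change from 1 to 20 days was 0.12 ± 0.23 on the log2 scale, which was not detectable at this depth.

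The arrays are given next, beside the shares of all tested genes, 34.5% higher and 34% lower from 1 to 5 days and 38.5% and 38% from 1 to 20 days. In array 5, with 13 tested members, 1 was called higher and 9 lower between 1 and 20 days, with a median log2 change of -0.53. The 1 called higher was math-20, which passed the count minimum only through its 20 day libraries. In array 7, from bath-28 to bath-9 with 6 tested members, 4 were higher and none lower between 1 and 5 days, and bath-28, bath-29 and bath-30 rose by 0.65 ± 0.05, 0.88 ± 0.07 and 0.51 ± 0.07. Array 1 held bath-26, bath-46, bath-47 and math-38 side by side, and their highest means fell at 5, 20, 20 and 10 days. Of these, bath-46 passed the count minimum only through its 20 day libraries. Its change from 1 to 20 days was not called (0.05 ± 0.31, edgeR adjusted p = 0.89). Array 2 had 2 tested members higher and 3 lower between 1 and 20 days.

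**Figure D5:**
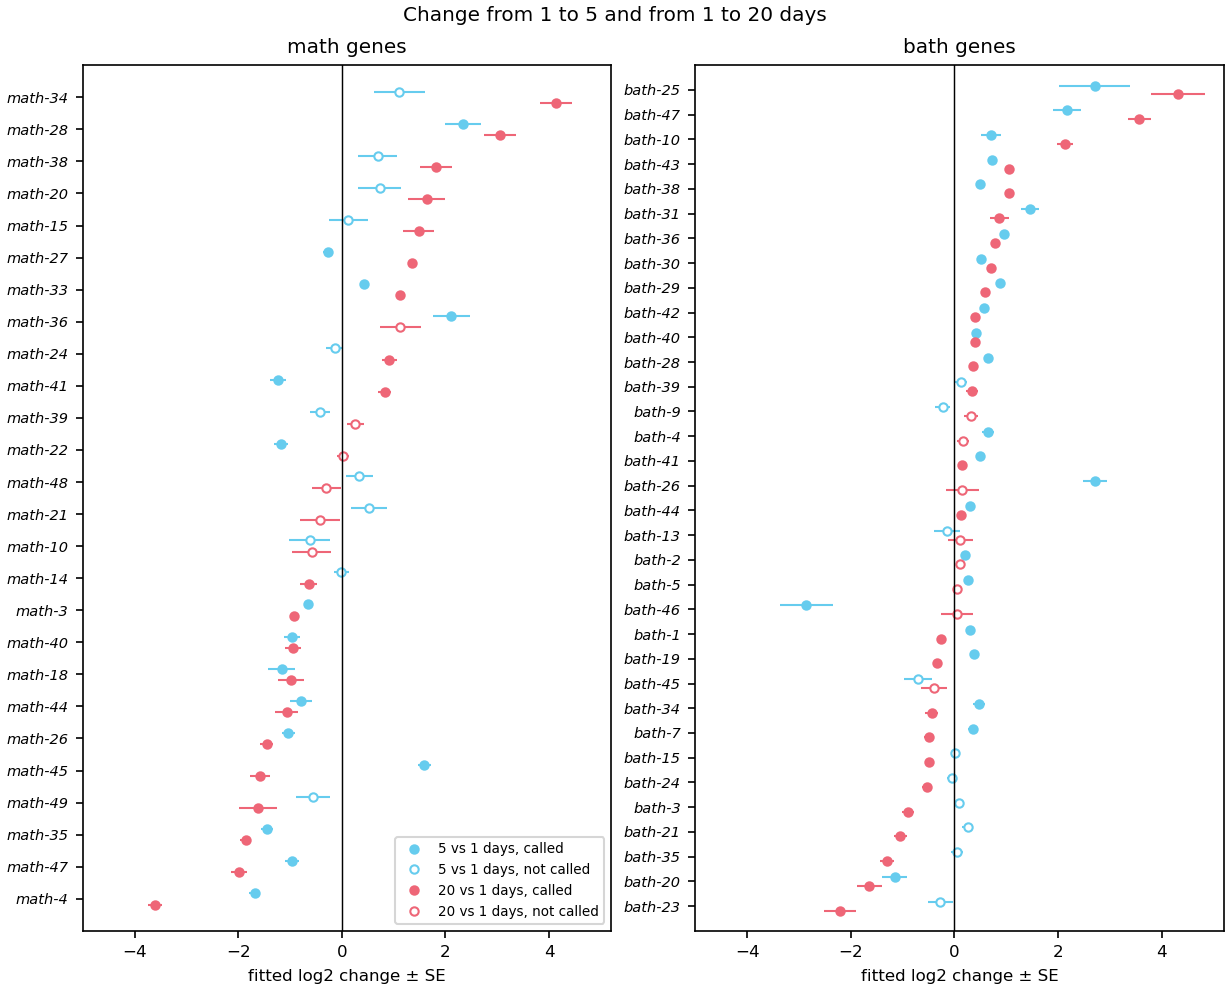
Fitted log2 change ± SE from 1 to 5 days (blue) and from 1 to 20 days (red) for each tested math gene (left) and bath gene (right), with filled points for called changes and open points for the others. Changes run from -3.60 for math-4 to 4.31 for bath-25, which had 0, 1 and 1 counts at 1 day, and most bath points for 5 days lie to the right of 0.

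The partners of these adaptors were measured in the same fit. cul-3, the cullin that BTB domains bind, measured 176 to 192 CPM at 1 day, 284 to 301 CPM at 5 days, 311 to 320 CPM at 10 days and 403 and 416 CPM at 20 days, a rise of 1.00 ± 0.04 on the log2 scale over the span (edgeR adjusted p = 4.9e-14). mel-26, the adaptor gene with neither name prefix, measured 241 to 245 CPM at 1 day and 321 to 351 CPM later, a rise of 0.44 ± 0.03 from 1 to 5 days (edgeR adjusted p = 7.9e-10). Among 17 tested genes of the CUL-3 ligase and its regulators 13 were called higher and 1 lower from 1 to 5 days, 7 and 2 from 5 to 10 days, 3 and 3 from 10 to 20 days, and 12 and 3 from 1 to 20 days. In the same order, 34.5%, 23.7%, 28.3% and 38.5% of all tested genes were called higher and 34%, 24.6%, 28.2% and 38% lower. The 3 that were lower over the span were rbx-1, the RING subunit (-0.38 ± 0.05), ned-8, the ubiquitin-like cullin modifier (-0.87 ± 0.05), and ubc-12, its conjugating enzyme (-0.41 ± 0.05). cand-1, which exchanges substrate receptors on cullins, was the most raised at 1.05 ± 0.04. The 3 genes for substrates of MEL-26 in the list, mei-1, mei-2 and ppfr-1, were all higher at 5 than at 1 day, and from 1 to 20 days 2 were higher and mei-2 lower.

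The btb genes and genes from a list of other MATH or BTB genes were read from the same fit, none of them named for a MATH domain. Of 17 tested btb genes, named for a BTB domain, 7 were called higher and 1 lower from 1 to 5 days, 4 and 4 from 5 to 10 days, 1 and 7 from 10 to 20 days, and 7 and 4 from 1 to 20 days, where the shares of all tested genes called higher and lower were 34.5% and 34%, 23.7% and 24.6%, 28.3% and 28.2%, and 38.5% and 38%. Of the 6 tested genes of a list of other MATH or BTB genes (eor-1, kel-3, kel-8, kel-10, tag-30 and gmn-1, the last a geminin gene not known for either domain), 3 were higher and 2 lower from 1 to 5 days, and 1 higher and 2 lower from 1 to 20 days.

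The marker lists give the change of tissues beside these values. Summed over 12 oocyte and embryo markers, the level was 15100 to 15550 CPM at 1 day, 21600 to 22350 CPM at 5 days, 17850 to 18130 CPM at 10 days and 16480 to 16680 CPM at 20 days. From 1 to 20 days, beside 38.5% of all tested genes higher and 38% lower, 2 of these 12 markers were higher and 6 lower, and of 11 germline markers 6 were higher and 4 lower. The sums of 6 body wall muscle and 6 hypodermis markers went from 4578 to 4938 and 2148 to 2312 CPM at 1 day to 736 to 788 and 209 to 213 CPM at 20 days. That of the intestine markers went from 11040 to 11300 CPM to 2105 to 2247 CPM, and 5 of 6 were lower. Pharynx markers were lower in 4 of 4, sperm markers in 4 of 6 with none higher, and msp-3, msp-31 and msp-142 were at or near 0 from 5 days on. Of 8 neuron markers 3 were higher and 3 lower over the span, and of 8 tested markers of later embryos and larvae 4 and 4, with a sum of 22.3 to 52.6 CPM in all libraries and hlh-1 at 0. The part of any of these in the changes of the math and bath genes was not tested.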

How the data were processed

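The authors mapped 50-base single-end reads to genome release WS220 with TopHat 1.4.1 and counted them per gene with HTSeq in union mode; the deposited counts are whole reads, not normalized, in 1 table from which no value column was left unused (0). Rows with a blank gene name numbered 4. Exon lengths, exon overlaps, biotypes and gene order came from WBcel235 (85 of 86 members had a length). The reads were counted on WS220, so the overlaps are not those of the annotation used for counting. Counts were fitted with edgeR 4.0.16 (R 4.3.3, limma 3.58.1; TMM, all 4 ages in 1 fit, no block) over genes with at least 100 summed counts and called at adjusted p under 0.01, after a check on simulated data. Replicate pairs differed beyond sampling noise (chi-square per degree of freedom 5.05 to 19.9). Rank correlations used scipy 1.17.1. Alternatives were other scalings, filters (including every gene with a count, and at least 100 counts in every library), DESeq2 1.42.0, an adjusted p under 0.05, 2 ages only, a replicate block and each library left out. At these depths, 20 counts in a library correspond to under 1 CPM. Named with values were the 8 largest called rises and falls from 1 to 20 days without overlap, the 3 highest of each family, members with a known role, the 3 largest rises and falls of each interval, and 4 members called in opposite directions. bath-38, bath-44, bath-28 to bath-30 and the members not called or described last in the report were added after their values were seen. The members and lists were chosen with earlier results of these data known. The gene lists were the CUL-3 ligase, substrates of MEL-26, other MATH or BTB genes, btb genes, and markers of germline, oocyte and embryo, sperm, later embryo and larva, intestine, body wall muscle, hypodermis, neurons and pharynx.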

Additional observations from a re-analysis of the deposited data

How the results depend on the processing

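Requiring at least 100 counts in every library left 24 members, 3 math and 21 bath, and thus fewer calls: 14 higher and 2 lower from 1 to 5 days, 3 and 7 from 5 to 10 days, 5 and 8 from 10 to 20 days, 11 and 8 from 1 to 20 days, and 21 over the 4 ages. The shares of all genes called under this filter are not given here, so these counts cannot be set against them. The median log2 change with this filter was -0.11 from 5 to 10 days and -0.022 from 10 to 20 days. With library size alone it was 0.30, -0.070 and 0.27 for 5 against 1, 20 against 10 and 20 against 1 days, and with every gene with a count (83 members) 0.12, 0.00 and -0.016 for the 3 consecutive intervals. At an absolute mean rho of at least 0.9, 5 members rose and 4 fell. The shares of all tested genes at this threshold are not given here. The 5 include bath-25, which passed the count minimum only through its 20 day libraries. Leaving out each library in turn gave medians of 0.19 to 0.28 (5 against 1 days), -0.11 to -0.058 (10 against 5), -0.20 to -0.070 (20 against 10) and 0.018 to 0.14 (20 against 1). Of 72 called changes of named members, 62 kept their call without any 1 library. The sign turned in 3 genes not called between 1 and 20 days, whose change ranged from -0.16 to 0.42 (bath-26), -0.26 to 0.29 (bath-46) and -0.60 to 0.097 (math-21). The median of the math genes from 10 to 20 days was -0.083, and 0.020 with library size alone. The cause of these shifts was not tested.

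Replicate numbers did not pair the libraries: deviations of same-numbered libraries correlated at -0.122 to 0.038, 0 of 15 pairs over 0.1, and 2 of 11 libraries correlated best with their own number. With the number as a block, 23 members were higher and 22 lower from 1 to 20 days, beside 24 and 22 without it. The shares of all genes called with the block are not given here.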

Other observations

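Among the members under the count minimum, math-42 had 93 counts over the 11 libraries, bath-37 had 88 and bath-33 had 84, and math-32, an annotated pseudogene, had the highest count of these in any library, 20.

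Single btb genes, chosen after their values were seen, had courses of their own. btb-17 averaged 2.46 CPM at 1 day, 2.79 CPM at 5 days, 2.24 CPM at 10 days and 0.31 CPM at 20 days, and fell by 2.96 ± 0.21 on the log2 scale in the last interval in edgeR's quasi-likelihood test. btb-10 averaged 0.92 CPM at 1 day, 3.56 CPM at 5 days, 5.92 CPM at 10 days and 2.79 CPM at 20 days. btb-14 averaged 14.2 CPM at 1 day and 4.00 CPM at 20 days, a change of -1.98 ± 0.10 on the same scale.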
